A study of Rattus norvegicus and Mus musculus with 3 samples.

Results

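The genes described here are 36 genes of glycolysis, lactate handling and the response to low oxygen, taken by symbol (letter case ignored) from the first column of each table. They comprise 13 glycolytic enzymes and 2 regulators of phosphofructokinase, 2 lactate dehydrogenase subunits, 3 genes around pyruvate dehydrogenase, 2 glucose and 3 lactate carriers, 8 targets of the hypoxia-inducible factors and 3 genes of oxygen sensing. All 36 were found among the 30438 genes of each rat table and the 34714 genes of the mouse table. RNA was taken from hippocampus in 3 libraries, 1 per group. The rat libraries were a wild-type rat aged 3 to 4 months labelled Sham and a wild-type rat of the same age range labelled 2VO. The mouse library was a mouse aged 6 months with the wild-type genotype, titled 3xTg-AD wild type. By the usage of this field, 2VO stands for tying off both common carotid arteries, which models chronic underperfusion of the forebrain, and Sham for the operation without that step. The sources used here do not give the time between surgery and sampling, the strain, or whether a library holds RNA of 1 animal or of several. Since each group is a single library, the differences have neither replicates nor a test behind them and describe these libraries alone.

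Glycolysis splits glucose into pyruvate in the cytosol and yields ATP without oxygen. Lactate dehydrogenase turns pyruvate into lactate and back, monocarboxylate carriers move lactate between astrocytes, neurons and blood, and the pyruvate dehydrogenase complex feeds pyruvate to the mitochondria. When oxygen is low, prolyl hydroxylases no longer mark the alpha subunits of the hypoxia-inducible factors for breakdown, and these factors then raise the transcription of many glycolytic genes, glucose carriers and genes such as Vegfa. Because the alpha subunits are regulated mainly at the protein level, their own transcripts are a poor readout of the response.

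The deposited values are normalized, in an unstated unit. Whether they are scaled to gene length is unknown, so values of different genes are not ranked against each other. Differences between the rats are given as the log2 ratio of 2VO to Sham after adding 1 unit to both, a step that shrinks the ratios of genes with low values. A gene counts as measured when its mean over both rats is at least 1 unit. Of the 36 genes 35 were measured, and Slc16a3 was not. In bulk tissue a change in the number of cells of a type and a change in RNA per cell cannot be told apart. The tissue label was checked against 11 genes of hippocampal principal cells. Of these 9 were measured in the rats, among them Prox1, a transcription factor of dentate granule cells, at 17.2 units in Sham, 14.8 in 2VO and 17.8 in the wild-type mouse, and C1ql2 at 96.6, 95.8 and 35.98. The rats were not level for this list: 7 of the 9 were lower in 2VO. Spink8 and Tdo2, from the same list, were near 0 in both rats (0.070 and 0.074 for Spink8, 0.012 and 0 for Tdo2) and at 18.8 and 2.87 in the mouse.

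Large differences between the 2 rat libraries were rare for these genes, as they were for all genes measured. After the added unit none of the 35 measured genes was 1.5-fold higher or lower in 2VO, where 1.51% of the 13550 measured genes were at least 1.5-fold higher and 0.967% at least 1.5-fold lower. As a plain ratio of the deposited values 1 passed, Ankrd37, at 0.662 times Sham, where 3.08% of all genes were higher and 1.9% lower by that much. With a lower threshold, a ratio of 5 to 4 after the added unit, 2 were higher, against 8.1% of all genes, and 2 were lower, against 4.58%. The 4 were the hypoxia targets Bnip3 and Egln3, higher in 2VO, and Ankrd37 and the hexokinase gene Hk2, lower in 2VO. Counting any difference, 27 of 35 were higher in 2VO and 8 lower, where 58.7% of all genes measured were higher. The median log2 ratio of the 35 was 0.13, beside 0.04 over all genes. The 577 genes averaging 100 units or more had a median of 0.04 as well, with 59.1% higher.

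**Figure D1:**
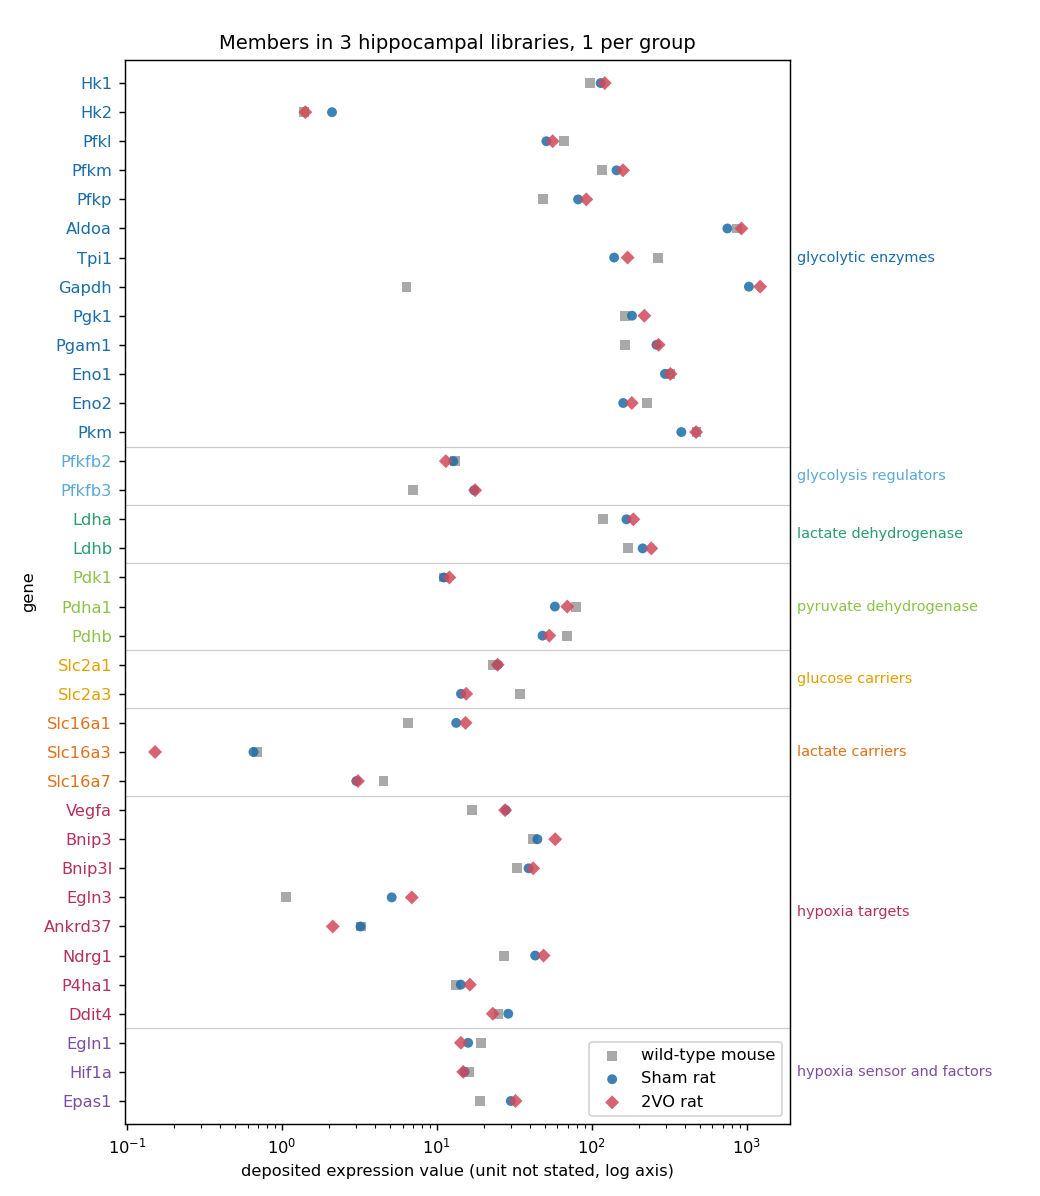
Deposited value of each of the 36 genes (log axis, unit not stated) in the Sham rat, the 2VO rat and the wild-type mouse, 1 library each, ordered by role. The rat points nearly coincide for most genes, and the mouse point of Gapdh, at 6.36, sits far from the rat points at 1031 and 1219.

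The glycolytic enzymes were almost all slightly higher in 2VO, in 12 of 13, where 58.7% of all genes measured were higher. Their median log2 ratio was 0.17, beside 0.04 over all genes. The displacement was small in each: the 12 log2 ratios ran from 0.05 for Pgam1 to 0.32 for Pkm, inside the central 95% of all genes, which ran from -0.41 to 0.50.

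In the first steps of the pathway, glucose is phosphorylated and split. Hk1, the constitutive brain hexokinase, was 114 units in Sham and 121 in 2VO, a difference of 6.25% of the Sham value. Hk2, the hexokinase that hypoxia and insulin induce, was the one enzyme lower in 2VO, at 2.104 and 1.41 (log2 ratio -0.36, percentile 3.55 of the ratios of all measured genes). Its values were close to the unit added before the log, so its ratio depends on that unit, and as a plain ratio it was 0.673 times Sham. The ratio of Hk2 to Hk1, in which any scaling of a library cancels, was 0.0185 in Sham and 0.0117 in 2VO.

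The subunit genes of phosphofructokinase, the main control point of the pathway, moved in step. Pfkm, named for muscle, was 144 in Sham and 159 in 2VO, Pfkl, named for liver, was 50.9 and 55.8, and Pfkp, named for platelets, was 81.5 and 92.0. All 3 were therefore higher in 2VO by similar proportions. The ratio of Pfkl to Pfkm was 0.353 in Sham and 0.351 in 2VO, and that of Pfkp to Pfkm was 0.565 and 0.579. The regulators did not share this. Pfkfb2 and Pfkfb3 make and degrade fructose 2,6-bisphosphate, an activator of phosphofructokinase. Pfkfb2 was 12.8 and 11.4, lower in 2VO with a log2 ratio of -0.15, and Pfkfb3, a known hypoxia target, was 17.4 and 17.6 with a log2 ratio of 0.02.

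The enzymes from aldolase to phosphoglycerate kinase, and the last one, held the 5 highest ratios among the 13. Aldoa, which splits fructose 1,6-bisphosphate, was 749 units in Sham and 923 in 2VO (log2 ratio 0.30, percentile 90.5). Tpi1, which interconverts the triose phosphates, was 139 and 170 (0.29), and Pgk1, the first ATP-making enzyme, was 182 and 218 (0.26). Each of these was higher in 2VO by 20.1% to 23.3% of the Sham value. Gapdh, the dehydrogenase between them and a common reference gene, was 1031 and 1219 (0.24). Pkm, which makes pyruvate, was 378 and 470 (0.32, percentile 91.4). The enzymes between Pgk1 and Pkm were displaced less: Pgam1, a phosphoglycerate mutase, was 261 and 270, Eno1, the enolase found in most cells, was 296 and 321, and Eno2, the neuronal enolase, was 159 and 181. The ratio of Eno1 to Eno2 was 1.86 in Sham and 1.78 in 2VO. Aldoa, Tpi1, Gapdh, Pgk1, Pgam1, Eno1 and Ldha belong to gene classes with many near-identical pseudogene copies, and the handling of reads that fit several copies is unknown here, so their single values are uncertain.

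**Figure D2:**
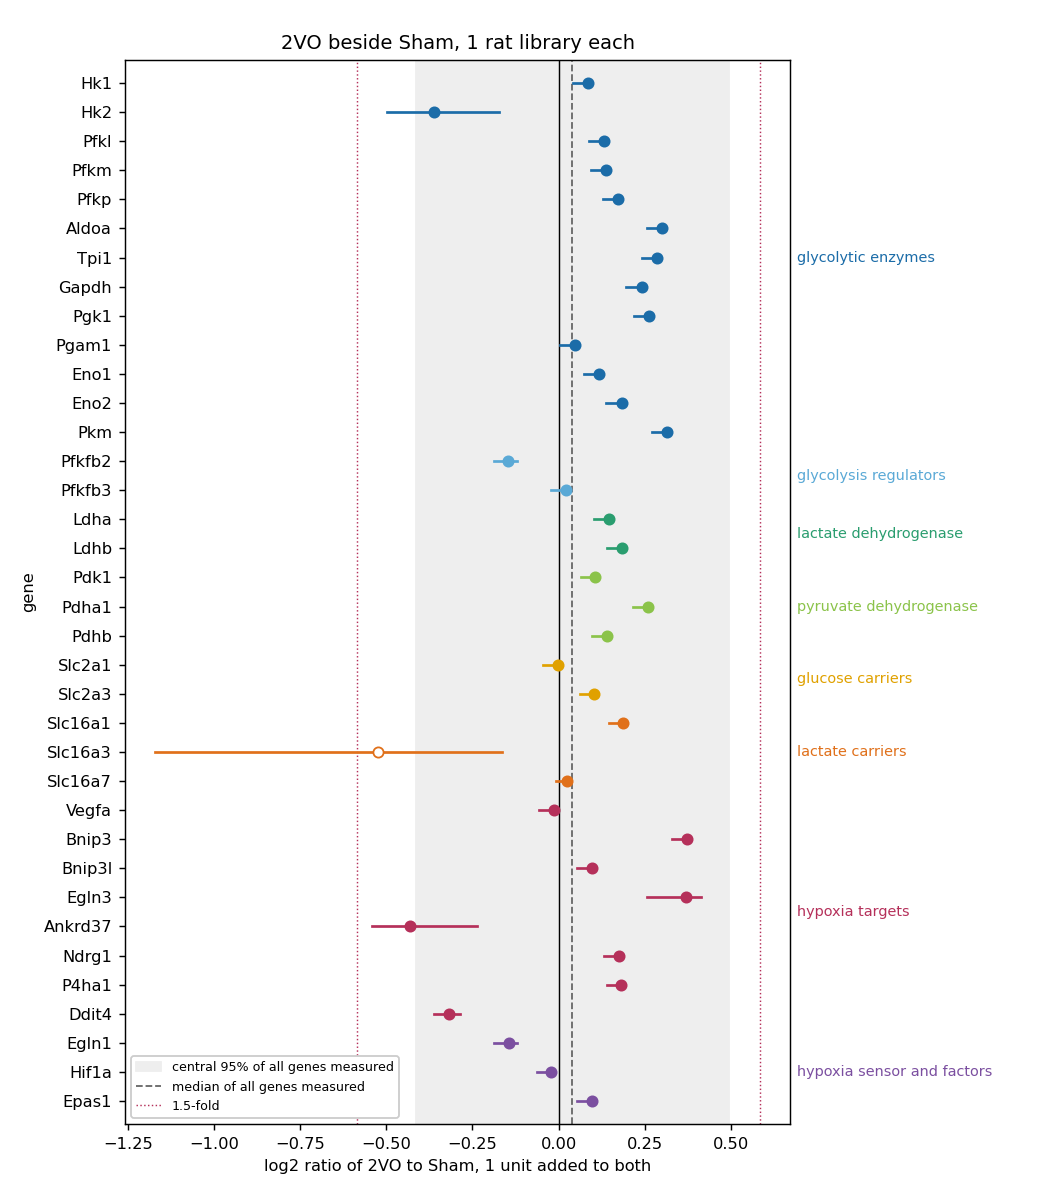
Log2 ratio of 2VO to Sham for each gene (points; open for Slc16a3, whose mean was below 1 unit), with bars from the lowest to the highest value over the deposited scaling, 3 other scalings and 2 other added values. Of the 13 glycolytic enzymes 12 lie right of 0, as do 58.7% of all genes measured, and the hypoxia targets lie on both sides.

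Downstream of pyruvate, all 5 genes were higher in 2VO, where 58.7% of all genes measured were higher. Ldha, whose subunit is the one hypoxia induces, was 167 units in Sham and 185 in 2VO, and Ldhb, whose subunit predominates in oxidative tissue and neurons, was 213 and 242. Both lay above the median of all genes, and the ratio of Ldha to Ldhb was nearly the same, 0.786 in Sham and 0.766 in 2VO. Pdha1 and Pdhb encode the E1 subunits of pyruvate dehydrogenase; Pdha1 was 57.7 and 69.4 (log2 ratio 0.26) and Pdhb was 48.1 and 53.1 (0.14). Pdk1, the kinase that switches the complex off and a classic hypoxia target, was 11.1 and 12.02 (0.11). The ratio of Pdk1 to Pdha1 was 0.192 in Sham and 0.173 in 2VO, slightly lower in 2VO.

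The 4 measured carriers were level or slightly higher in 2VO. Slc2a1, the glucose carrier of the blood-brain barrier and astrocytes (GLUT1), was 24.7 units in Sham and 24.6 in 2VO, and Slc2a3, the neuronal glucose carrier (GLUT3), was 14.3 and 15.4. Slc16a1, the monocarboxylate carrier MCT1 of endothelium and glia, was 13.3 and 15.3 (log2 ratio 0.19). Slc16a7, the neuronal carrier MCT2, was 3.02 and 3.09. Of these 4 measured carriers only Slc16a1 and Slc2a3 lay above the median of all genes, with Slc2a3 at 0.10. Slc16a3, the carrier MCT4 that hypoxia induces and that exports lactate from glycolytic cells, was below 1 unit in all 3 libraries, at 0.655 in Sham, 0.152 in 2VO and 0.692 in the mouse. The 2VO value was the lowest of the 3, at a level where no detection limit can be given because the depth is unknown. Endothelial markers were divided beside these carriers: 7 of the 15 genes were higher in 2VO, 8 were lower and none was at 0. They summed to 68.5 units in Sham and 72.7 in 2VO. Among those measured, Itm2a lay furthest apart, at 10.9 in Sham and 16.3 in 2VO.

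The hypoxia targets were divided in direction, about as all measured genes were. Of 8 measured targets 5 were higher in 2VO (62.5%, beside 58.7% of all genes) and 3 lower. Their median log2 ratio was 0.14, beside 0.04 over all genes, and 5 of the 8 lay above the median of all genes. Bnip3, a mitophagy receptor, was 44.5 units in Sham and 58.0 in 2VO (log2 ratio 0.37, percentile 94.4), whereas its relative Bnip3l was 39.0 and 41.8 (0.10). Egln3, the hydroxylase PHD3 and itself a target of the pathway, was 5.11 and 6.89 (0.37, percentile 94.2). Ndrg1, a stress-responsive gene that is also abundant in myelinating cells, was 43.1 and 48.8 (0.18). P4ha1, a collagen prolyl hydroxylase subunit, was 14.3 and 16.3 (0.18). Against these, Ankrd37 was 3.21 and 2.13 (log2 ratio -0.43, percentile 2.14) and Ddit4, the mTOR inhibitor REDD1 that glucocorticoids and other stresses also induce, was 28.9 and 22.9 (-0.32, percentile 4.64). Ankrd37 was the single measured gene of the 35 outside the central 95% of all genes. Vegfa, the angiogenic growth factor, was 27.8 and 27.6 (-0.01), level in both rats.

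The oxygen sensor Egln1 was slightly lower in 2VO, and the factor genes Hif1a and Epas1 were near level. Egln1, the hydroxylase PHD2 that sets the level of the factors under normal oxygen, was 15.9 units in Sham and 14.3 in 2VO (log2 ratio -0.14). Hif1a was 15.0 and 14.8, and Epas1, which encodes HIF-2 alpha and is strong in endothelium and glia, was 29.99 and 32.1. Egln3 and Egln1 thus lay on opposite sides, and their ratio was 0.321 in Sham and 0.482 in 2VO, 1.5 times the Sham value, or 1.43 times with 1 unit added to each value. Of the 12 pairs of related genes compared in this way, the ratio differed by at least 1.5-fold in 3: this pair, Hk2 to Hk1, and Slc16a3 to Slc16a1, at 0.0492 in Sham and 0.00992 in 2VO. With 1 unit added the ratio of Hk2 to Hk1 in 2VO was 0.733 times that in Sham. The ratio of Slc16a3 to Slc16a1, which rests on a gene below the filter, was 0.202 times that in Sham, or 0.612 times with the unit added. In the other 9 pairs the 2VO ratio was 0.901 to 1.13 times the Sham ratio.

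The promoters of the targets that lay furthest apart are shown with that of Ldha, a textbook hypoxia target, because the letters the hypoxia-inducible factors recognise stand in windows of genes on both sides. The core of the hypoxia response element reads ACGTG or GCGTG; both were searched on both strands, and CACGTG, the E-box of MYC and clock factors, contains ACGTG on each strand. Each window runs from 250 bases before to 50 after a gene's start, 5′ to 3′ along the gene, from RefSeq on GRCr8, a different build from the one named for the rat data; capitals mark the cores. The windows are chr1:203154913-203155212 (minus strand) for Bnip3, chr6:77410966-77411265 (minus) for Egln3, chr16:53001257-53001556 (plus) for Ankrd37, chr20:28436988-28437287 (minus) for Ddit4 and chr1:106507842-106508141 (plus) for Ldha.
Bnip3: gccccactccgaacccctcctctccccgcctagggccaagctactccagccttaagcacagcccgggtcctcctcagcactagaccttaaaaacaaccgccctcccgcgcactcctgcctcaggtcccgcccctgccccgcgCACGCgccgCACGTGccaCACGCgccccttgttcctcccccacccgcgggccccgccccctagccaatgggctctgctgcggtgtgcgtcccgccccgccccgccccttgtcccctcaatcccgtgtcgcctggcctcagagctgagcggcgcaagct
Egln3: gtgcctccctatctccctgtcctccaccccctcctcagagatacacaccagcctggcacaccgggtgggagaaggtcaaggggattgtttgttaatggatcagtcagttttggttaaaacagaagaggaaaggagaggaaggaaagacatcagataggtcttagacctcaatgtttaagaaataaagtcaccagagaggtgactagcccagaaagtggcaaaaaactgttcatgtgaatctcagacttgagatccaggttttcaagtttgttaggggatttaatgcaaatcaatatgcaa
Ankrd37: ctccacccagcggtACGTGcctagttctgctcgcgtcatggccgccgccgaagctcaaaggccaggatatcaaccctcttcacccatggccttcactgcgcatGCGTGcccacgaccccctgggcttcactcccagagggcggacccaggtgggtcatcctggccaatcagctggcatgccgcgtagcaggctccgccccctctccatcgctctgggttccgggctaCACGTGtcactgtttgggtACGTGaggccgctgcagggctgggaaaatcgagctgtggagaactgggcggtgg
Ddit4: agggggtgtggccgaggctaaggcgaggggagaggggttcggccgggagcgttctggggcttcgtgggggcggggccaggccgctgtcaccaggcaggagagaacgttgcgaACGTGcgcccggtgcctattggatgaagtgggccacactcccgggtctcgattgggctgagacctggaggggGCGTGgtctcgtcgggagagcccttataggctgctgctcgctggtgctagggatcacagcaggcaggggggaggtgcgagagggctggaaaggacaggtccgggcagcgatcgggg
Ldha: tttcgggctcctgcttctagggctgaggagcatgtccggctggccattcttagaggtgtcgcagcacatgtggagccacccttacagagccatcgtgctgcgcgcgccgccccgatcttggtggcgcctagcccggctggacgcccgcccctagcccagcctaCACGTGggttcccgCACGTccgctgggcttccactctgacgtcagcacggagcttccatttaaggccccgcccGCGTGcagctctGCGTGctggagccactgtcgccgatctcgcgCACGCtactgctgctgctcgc

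The Bnip3 window, of a gene higher in 2VO, held 4 cores within 250 bases of the start, among them 1 CACGTG. The Ankrd37 window, of a gene lower in 2VO, held 5 with 1 CACGTG, that of Ddit4, also lower, held 2, and that of Egln3, higher, held none. Ldha held 6 and was slightly higher. A match is only a string of letters in this window, and its absence says nothing of sites elsewhere.

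Of the 36 genes 32 had a window in the table, and 4 of these had several. A core stood in at least 1 window of 24 genes (75.0%), beside 44.6% of all 27457 genes in the table. Counted by window, 67.6% of the 37 windows of these genes held a core, beside 41.6% of all 33469 windows. The windows were rich in CpG, with a median of 20 against 7 over all windows, and both cores contain a CpG. Among all windows with at least 20 CpG, 72.3% held a core. That share is not like for like with the 67.6%, which includes windows with fewer CpG. Of the windows of these genes with at least 20 CpG, only those of Pkm (20 CpG) and Epas1 (36 CpG) held no core. The 24 measured genes with a core had a median log2 ratio of 0.13 and 19 were higher in 2VO, and the 7 measured genes with a window and no core had a median of 0.10 and 4 were higher.

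**Figure D3:**
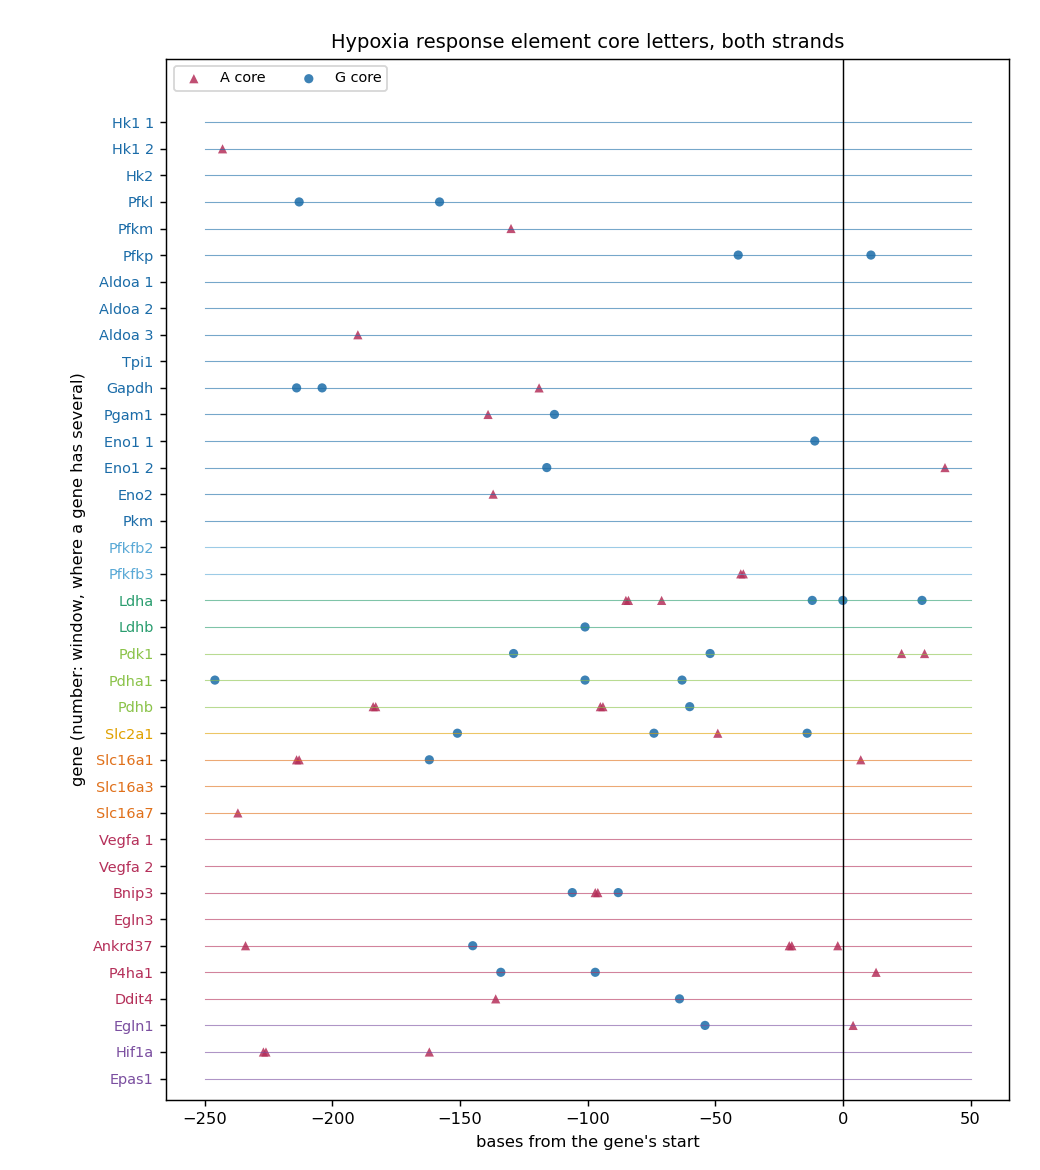
Position of each core, in bases from the gene's start, in the 37 windows of 32 genes; triangles mark ACGTG and circles GCGTG on either strand, and names are coloured by role as in the other plots. Cores stand in the windows of Bnip3, higher in 2VO, and of Ankrd37 and Ddit4, lower in 2VO, while Egln3 and Vegfa have none here.

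The rest of the pathway was read from lists of other genes. Of 127 further genes measured, 82 were higher in 2VO (64.6%, beside 58.7% of all genes) and 45 lower. Their median log2 ratio was 0.06. After the added unit none was 1.5-fold higher and 1, Slc16a11, was 1.5-fold lower. As plain ratios 2 were lower by that much, Slc16a11 and Cox4i2. Among 25 other genes of sugar and glycogen metabolism 16 were higher (64%), with a median of 0.07, and 13 lay above the median of all genes. Gpi, the isomerase between hexokinase and phosphofructokinase, was 211 units in Sham and 277 in 2VO (0.39), and Adpgk, an ADP-dependent glucokinase, was 24.0 and 31.7 (0.39). At the other end, Pgm2, a phosphopentomutase, was 7.01 and 5.72, and Eno3, the muscle enolase, was 3.49 and 2.77. The ratio of Gpi exceeded that of each of the 13 enzymes above.

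The other carriers leaned the other way, with 6 of 15 higher (40%, beside 58.7% of all genes) and a median log2 ratio of -0.06. Slc16a11, a monocarboxylate carrier family member, was at 14.2 units in Sham and 8.01 in 2VO (log2 ratio -0.76, percentile 0.443). Slc2a5, the fructose carrier that in brain marks microglia, was 2.80 and 2.02 (-0.33). Microglial markers were lower beside it, in 10 of 12 genes, with sums of 223 and 176 units and none at 0; their part in the Slc2a5 value was not tested. Emb, a chaperone of monocarboxylate carriers, was 8.13 and 9.79, and Mpc1, a subunit of the mitochondrial pyruvate carrier, was 67.6 and 77.2.

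Genes that carry pyruvate and NADH onward were mostly higher in 2VO, and so were 58.7% of all genes. Of 10 other pyruvate dehydrogenase genes 7 were higher (70%), a share not far above that of all genes. The phosphatase gene Pdp1 was 9.74 and 11.7 and the subunit gene Pdhx was 12.2 and 13.99. The lowest 2 were Dld at 41.5 and 39.4 and the regulator Pdpr at 5.45 and 5.16. Of 21 citrate cycle enzymes 17 were higher (81.0%), with a median of 0.12. Idh3g, a subunit of NAD-dependent isocitrate dehydrogenase, was 63.7 and 86.6 (0.44), and Dlst, a subunit of the oxoglutarate dehydrogenase complex, was 25.9 and 33.1 (0.34). Sdhc and Idh2 were slightly lower, at 82.9 and 79.0 and at 23.0 and 22.0. Of 9 genes of the NADH shuttles 8 were higher (88.9%), with a median of 0.14. Gpd1, the cytosolic glycerol 3-phosphate dehydrogenase, was 19.4 and 26.1 (0.41), and the aspartate-glutamate carrier Slc25a12 was 39.4 and 46.4. Gpd2, its mitochondrial partner in the glycerophosphate shuttle, was 13.6 and 12.7, and Gpd1l was 19.0 and 19.8. The list medians of the glycolytic enzymes, the pyruvate step, the citrate cycle and the shuttles were thus above the 0.04 of all genes. The median of the 8 hypoxia targets, at 0.14, was above it as well. That of the other sugar and glycogen genes was near it, and that of the 2 regulators Pfkfb2 and Pfkfb3, at -0.06, was below it.

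The wider hypoxia pathway had no lean of its own. Of 49 other genes of this pathway 29 were higher, or 59.2%, beside 58.7% of all genes, and the median of 0.03 was close to the 0.04 of all genes. Mif, a cytokine that hypoxia can induce, was 66.0 units in Sham and 95.8 in 2VO (0.53), and Car12, a carbonic anhydrase, was 21.1 and 28.9 (0.44). Cxcl12, a chemokine, was 56.1 and 39.3 (-0.50), and Cox4i2, an oxygen-regulated subunit of cytochrome c oxidase found in mural cells, was 1.32 and 0.758 (-0.40, or 0.573 times Sham as a plain ratio). The 2 that lay highest and the 2 that lay lowest were thus about equally far from 0.

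**Figure D4:**
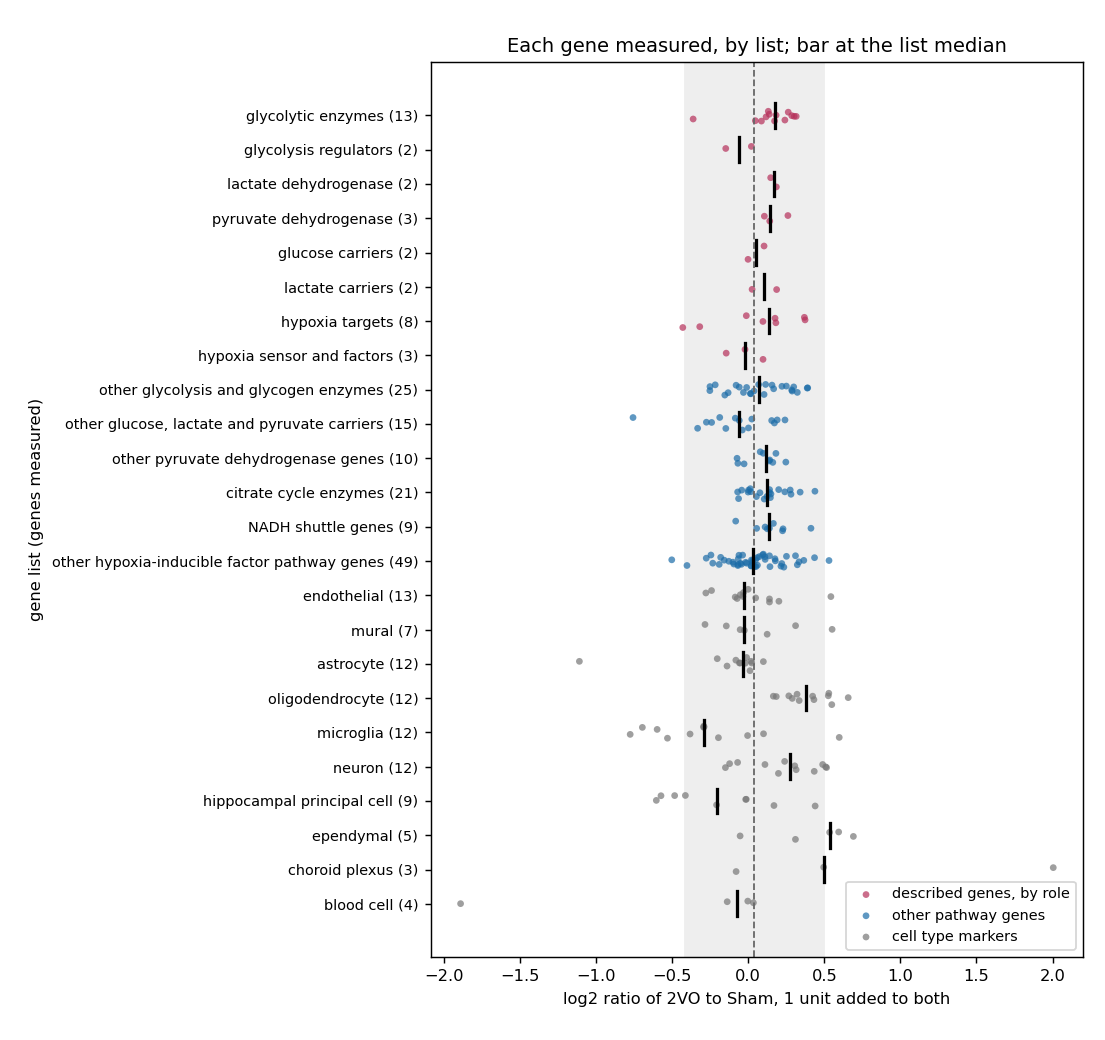
Log2 ratio of 2VO to Sham of each measured gene, by list, with a bar at the list median; the shaded band holds the central 95% of all genes and the dashed line their median of 0.04. The glycolytic enzymes, the lactate dehydrogenase and pyruvate dehydrogenase lists, the citrate cycle and the shuttles have medians of 0.12 to 0.17. The hypoxia targets, at 0.14, lie in that range, and the hypoxia sensor and factors are at -0.02. The medians are 0.07 for the other glycolysis and glycogen genes, -0.06 for the glycolysis regulators and 0.03 for the wider hypoxia list. The oligodendrocyte markers are at 0.38 and the hippocampal principal cell genes at -0.21.

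Markers of the cells that hold these enzymes also differed between the libraries. Neuronal markers were higher in 2VO in 9 of 12 genes and summed to 2827 units in Sham and 3118 in 2VO; within the list Camk2a was 780 and 717, Slc17a7 715 and 682, and Snap25 454 and 614. The genes of hippocampal principal cells lay the other way, with 7 of 9 measured lower, a median log2 ratio of -0.21 and sums over all 11 of 627 and 492. Wfs1, a gene of CA1 pyramidal cells, was 169 and 111 (-0.60), Rgs14, a gene of CA2, 55.03 and 36.7, Cabp7 167 and 119, and Neurod2 76.3 and 57.1, whereas Calb1 was 25.6 and 35.02 and Fibcd1 18.3 and 20.7. Oligodendrocyte markers were higher in 12 of 12 genes, with sums of 3951 and 4959. Astrocyte markers were lower in 8 of 12, with sums of 1520 and 1094, or 742 and 734 without Gfap. No neuronal, oligodendrocyte or astrocyte marker was at 0 in either rat. Ependymal and choroid plexus markers had low sums that were higher in 2VO, 8.48 and 13.4 units and 3.44 and 8.67. Of the ependymal genes 6 were higher and 2 lower. Of the choroid plexus genes 5 were higher and 3 lower, with Ttr at 0.434 in Sham and 4.75 in 2VO. The part of these shifts in the glycolytic and pyruvate values was not tested.

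The mouse library served for levels alone, since species, table and normalization all differ. Of the 35 genes measured across mouse and Sham, 15 were higher and 20 lower in the mouse, with a median log2 ratio of mouse to Sham of -0.10 beside -0.12 over 11436 shared genes. The mouse value lay above both rats for 13, below both for 19 and between them for 3, which were Aldoa, Pdk1 and Ddit4. After the added unit at least a 2-fold difference from Sham was seen in 4 genes, where 17.9% of all shared genes differed that much. Slc2a3 was higher in the mouse, at 34.6 units against 14.3. Pfkfb3, at 7.02 against 17.4, and Egln3, at 1.06 against 5.11, were lower. Gapdh was the fourth, at 6.36 against 1031, and its ratio was the lowest of all 11436 shared genes. As a plain ratio Slc16a1 also passed, at 6.52 against 13.3. The enzymes next to Gapdh in the pathway were not low in the mouse, with Tpi1 at 269, Pgk1 at 163 and Aldoa at 864 units, and the mouse Gapdh value is given only as listed. The retrogene Eno1b, a near-copy of Eno1, was listed at 19.6 in the mouse, where Eno1 stood at 322.

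In 11 of the 12 pairs of related genes the mouse ratio lay outside both rats, the exception being Hk2 to Hk1 at 0.0144. The ratio of Slc2a1 to Slc2a3 was 1.72 in Sham, 1.60 in 2VO and 0.665 in the mouse, that of Slc16a1 to Slc16a7 was 4.41, 4.94 and 1.44, and that of Pfkfb3 to Pfkfb2 was 1.36, 1.55 and 0.536. The ratio of Ldha to Ldhb was closer, at 0.786, 0.766 and 0.689. Gene models and lengths differ between the species, so species and gene model cannot be told apart in these gaps.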

How the data were processed

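TRIzol-extracted hippocampal RNA was made into libraries with a TruSeq kit, per the labels' protocols, 1 library per group, grouped by title. Per the submitters' processing notes, fastp 0.21.0, HISAT2 2.1.0, DESeq2, mRatBN7.2 and GRCm39 were used in roles the notes leave out; the quantifier, annotation and filters were not found in these sources. Each table deposited by the authors holds 1 normalized expression signal per gene, never negative, its unit unstated, summing to 325636 in Sham, 333941 in 2VO and 268889 in the mouse. Depth is unknown, so no counting interval or detection limit is given. The signal was used as deposited. Log2 ratios were taken with 1 unit added, over the 13550 genes averaging 1 unit or more in the rats, and genes were counted at 1.5-fold and at a ratio of 5 to 4 on that scale; plain ratios without the unit were added after the data were seen. No statistical test was run, since each group holds 1 library; the planned route for counts was not needed.

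All 36 genes are reported; of each pathway list the 2 highest and 2 lowest measured genes and any past 1.5-fold are named, and of the neuronal list the 3 with the highest values; other markers are named as examples, and Gfap was left out of the astrocyte sum after its value was seen. The genes and lists were chosen with earlier results of these data known. Promoter windows came from RefSeq (GRCr8) and were matched by symbol for 32 genes. Python 3.11.15, pandas 2.3.3, numpy 2.4.6 and matplotlib 3.10.9 were used.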

Additional observations from a re-analysis of the deposited data

How the results depend on the processing

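Other settings were equal upper quartiles, median of ratios, equal sums without the 50 genes of highest value, 0.25 or 4 units added, no filter or a filter at 5 units, and thresholds of a ratio of 5 to 4 and of 2-fold. No gene of the 36 measured in a setting passed 1.5-fold under any of the 3 scalings, the added values or the filters, except Slc16a3, which is below the filter and stood at -1.17 with 0.25 units added. With no unit added, a setting chosen after seeing the data, 0 were higher and 1 lower, Ankrd37. At the ratio of 5 to 4, 2 genes were higher and 2 lower. The other scalings lowered the ratios by up to 0.04, since 2VO was divided by 1.03; all genes then split evenly, with 50.6% higher under equal upper quartiles, while 25 of the 35 were higher and 10 lower. The sign held for 34 of 36 genes over the 5 scalings and added values, with Pfkfb3 and Slc16a7 as exceptions, and 12 of 13 glycolytic enzymes stayed higher under each scaling. The median of the 35 lay at 0.09 in all 3 scalings. No paired analysis was possible because each group holds 1 library. All values are limited by the lack of replicates and of a known depth.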
